A study of Mus musculus with 9 samples.

Results

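Cardiomyocyte nuclei with a high level of Ankrd1 were described in the hearts of mice after sham surgery, after ischemia and reperfusion (I/R), and after I/R with Shexiang Baoxin Pill (SBP). The nuclei were chosen by their own measured values. A nucleus was taken as a cardiomyocyte when at least 4 of 8 cardiomyocyte genes (Mhrt, Myh7b, Kbtbd12, Fhl2, Rbm20, Ldb3, Rnf207 and Ctnna3) and at most 2 of 9 genes of endothelial cells, fibroblasts and macrophages (Pecam1, Flt1, Ptprb, Dcn, Pdgfra, Abca8a, Csf1r, Mrc1 and Adgre1) were above 0. It was called Ankrd1-high when its Ankrd1 value was also above 2.5, and Ankrd1-low otherwise. The values are natural logs of 1 plus the molecules (UMIs) of a gene per 10000 UMIs of the nucleus. Of 49171 nuclei, 9975 were cardiomyocytes by this rule, and 1699 of those were Ankrd1-high, which is 3.46% of all nuclei and 17.0% of cardiomyocytes. The remaining 8276 cardiomyocytes were Ankrd1-low. The study describes a larger set of nuclei than the files used here hold, so all shares are of the nuclei in these files.

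The series holds single-nucleus RNA sequencing of heart tissue from 9 C57BL/6 mice, 3 in each group, and the study states that every sample was a separate animal. Per the study, the tissue was taken from below the site of ligation. The mice were supplied at 8 weeks of age and kept for a week before they were assigned to groups. Sham mice had the operation without ligation and received vehicle. I/R mice received vehicle by gavage for 7 days before the left anterior descending artery was tied for 30 min, and the tissue was taken after 24 h of reperfusion. SBP mice had the same ligation and reperfusion after 7 days of SBP, a Chinese medicine pill that the labels call MUSKARDIA. No group carried a transgene or a deleted gene, and because no sham mice received SBP, the drug can be read only on top of the injury.

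Ankrd1 encodes a cardiac ankyrin repeat protein that binds titin at the spring region of the sarcomere and also enters the nucleus. Its transcription rises when the heart muscle is stretched, overloaded or injured, together with that of the natriuretic peptide genes, which makes it one of the usual markers of a stressed cardiomyocyte. The border of an infarct is a known place of such cells. The Z-disc, where titin and the actin filaments are anchored, carries many other proteins that respond to stretch, among them filamin C and the Xin repeat proteins.

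The promoters of Ankrd1 and Nppb are shown because these are the gene that defines the nuclei and a natriuretic peptide gene that was higher with it in all 9 mice. Each window is the RefSeq sequence on GRCm38.p6 from 250 bases before to 50 bases after the annotated start, written along the gene. Capitals mark the M-CAT core, which is bound by TEAD factors, as CATTCC or its reverse complement.
Ankrd1, chr19:36119795-36120094, minus strand: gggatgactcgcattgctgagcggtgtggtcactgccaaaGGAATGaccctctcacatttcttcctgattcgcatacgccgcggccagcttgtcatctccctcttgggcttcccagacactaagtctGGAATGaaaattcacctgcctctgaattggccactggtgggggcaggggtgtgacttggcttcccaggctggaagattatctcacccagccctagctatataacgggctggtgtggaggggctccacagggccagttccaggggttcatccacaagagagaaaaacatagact
Nppb, chr4:147985650-147985949, plus strand: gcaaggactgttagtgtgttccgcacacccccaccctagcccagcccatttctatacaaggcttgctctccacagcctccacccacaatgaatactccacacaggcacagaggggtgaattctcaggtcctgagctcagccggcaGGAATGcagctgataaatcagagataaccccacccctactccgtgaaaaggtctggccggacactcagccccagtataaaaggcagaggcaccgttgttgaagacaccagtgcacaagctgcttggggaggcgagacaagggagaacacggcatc
The Ankrd1 window held 2 M-CAT cores, which begin 210 and 123 bases before the start. The Nppb window held 1, which begins 105 bases before the start. Each of these windows also held 1 GATA core, searched as AGATAA on both strands, and neither held an AP-1 site, searched as TGANTCA. Of 32851 promoters of the same length, 14.7% held CATTCC on either strand, 11.2% held AGATAA and 7.81% held TGANTCA. Among the other genes whose windows were searched, Flnc had overlapping windows that held the same single M-CAT core. It begins 1 base before the start of one window and 104 bases before that of the other. Tgfb2, Xirp2, Shroom3 and Synpo2l held none.

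The label of stressed cardiomyocytes was checked against the marker genes. Ankrd1 itself defines the nuclei. Summed over the Ankrd1-high nuclei of a sample and scaled to a total of 1000000 UMIs (CPM), Nppb, the gene of B-type natriuretic peptide, was 3.23-fold above the Ankrd1-low nuclei. The other markers did not separate the nuclei: Fhl2, a titin-bound LIM protein that the rule also used, differed by 0.03 ± 0.27 (SD of the log2 difference, n = 9), titin (Ttn) by 0.03 ± 0.16 and the ryanodine receptor Ryr2 by 0.09 ± 0.33. Nppa, the gene of atrial natriuretic peptide, was higher in 8 of 9 samples, at a mean of 124 CPM against 11.6 CPM, but this mean rests on sham 3 with 666 CPM, and sham 2 held none. Skeletal actin (Acta1) was likewise higher in 8 of 9 samples, at 23.3 CPM against 4.51 CPM. Myh7, the slow myosin heavy chain of the fetal heart, was higher in only 4 of 9, at 960 CPM against 986 CPM. Myh7 overlaps Mhrt on the opposite strand, and Mhrt is one of the genes of the rule.

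Marker genes of other cell types were present at low levels in both kinds of pool. The rule itself limited 3 genes in each of the endothelial, fibroblast and myeloid lists. The sums below include these genes, so low sums were partly set by the choice of the nuclei. Outside the rule genes, 5 endothelial, 5 fibroblast, 7 myeloid, 4 pericyte and smooth muscle, 2 lymphocyte and 2 Schwann cell markers were measured. None was higher in the Ankrd1-high nuclei in all 9 samples, and Emcn of the endothelial list was lower in all 9. Over all genes, 1.17% were higher and 3.67% lower in all 9 samples, and lists this short cannot tell such shares from 0. In Ankrd1-high pools, the 8 endothelial markers summed to 193.6 to 316.3 CPM in sham, 80.92 to 115.1 CPM in I/R and 75.27 to 145 CPM in SBP. In Ankrd1-low pools they summed to 135.7 to 254.8 CPM, 104.8 to 128.8 CPM and 88.9 to 152 CPM, so the high pool held more of them in each of the 3 sham mice and less in each of the 6 mice with ligation. The 8 fibroblast markers summed to 118.3 to 266.3 CPM in sham, 267.4 to 369.9 CPM in I/R and 216.6 to 236.4 CPM in SBP in the high pools, and to 190.7 to 330 CPM, 297.7 to 492.1 CPM and 253.5 to 304.6 CPM in the low pools. For the 10 myeloid markers these ranges were 102.2 to 208.1 CPM, 119.5 to 227.9 CPM and 91.15 to 141.1 CPM in the high pools, and 117.6 to 164.6 CPM, 157 to 298.3 CPM and 112.2 to 165.5 CPM in the low pools. Of the genes the rule used, Csf1r, Pdgfra and Adgre1 were at 0 in at least 1 sample. The part of these levels in the results below was not tested.

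The files held 4576 to 6418 nuclei and 10329520 to 18205985 UMIs per sample. The pools of Ankrd1-high nuclei were shallowest in sham, with 120147 to 318187 UMIs, against 865049 to 2414173 UMIs in I/R and SBP. An Ankrd1-high nucleus held a median of 2483.5 to 4253 UMIs in sham, 4335 to 5658 in I/R and 4824.5 to 5201 in SBP. Of 48881 distinct barcodes, 290 occurred in more than 1 library. I/R 2 and SBP 1 stood apart from the other mice of their groups, and values without them are given where they decide a result.

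The share of cardiomyocyte nuclei that were Ankrd1-high was several times greater after I/R than after sham, while the I/R and SBP mice overlapped. In sham 1, 47 of 1319 cardiomyocytes were Ankrd1-high (3.56%, exact 95% binomial interval 2.63 to 4.71), in sham 2, 36 of 1469 (2.45%, 1.72 to 3.38), and in sham 3, 66 of 1432 (4.61%, 3.58 to 5.83). In I/R 1 there were 128 of 1043 (12.3%, 10.3 to 14.4), in I/R 2, 392 of 805 (48.7%, 45.2 to 52.2), and in I/R 3, 194 of 1090 (17.8%, 15.6 to 20.2). In SBP 1 there were 404 of 843 (47.9%, 44.5 to 51.4), in SBP 2, 242 of 1025 (23.6%, 21.0 to 26.3), and in SBP 3, 190 of 949 (20.02%, 17.5 to 22.7). Every I/R and SBP mouse stood above every sham mouse, while the I/R and SBP mice were interleaved. The intervals cover counting error only, and the spread between the injured mice was far wider than any of them.

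**Figure D1:**
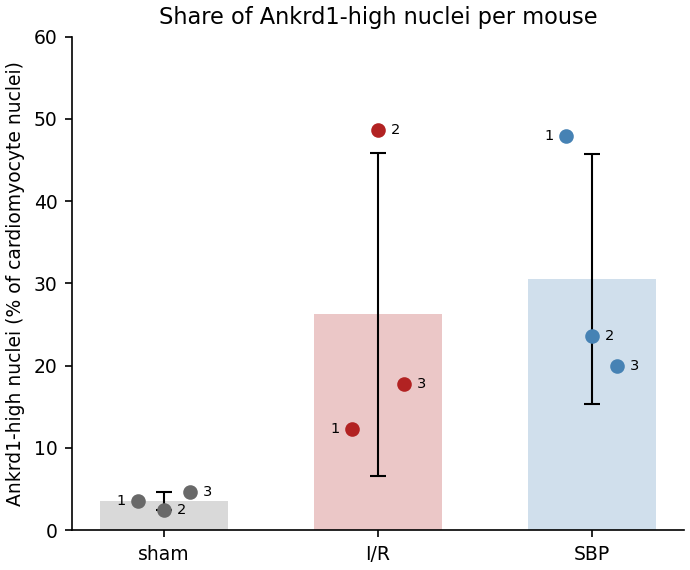
Share of cardiomyocyte nuclei with an Ankrd1 value above 2.5 (y axis, percent) in each of the 9 mice, by group, with the mean and SD of each group. The 3 sham mice lie between 2.45% and 4.61%, below the 6 mice with ligation, and I/R 2 and SBP 1 lie near 48%, far above the others of their groups.

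The mean share was 3.54% ± 1.08 (SD, n = 3) in sham, 26.3% ± 19.6 (n = 3) in I/R and 30.5% ± 15.2 (n = 3) in SBP. I/R stood 22.7 percentage points above sham, or 7.41-fold, with an exact two-sided permutation p of 0.1, the smallest that 3 against 3 mice allow. Without I/R 2, the fold was 4.25. SBP stood 27.0 points above sham, or 8.62-fold, also with an exact permutation p of 0.1. Between SBP and I/R the difference was 4.26 points (exact permutation p = 0.6), and it turned to -2.73 points without I/R 1 and to -4.44 points without SBP 1. Without I/R 2 it was 15.5 points, or 2.03-fold, and the 2 groups then did not overlap (exact permutation p = 0.3). The choice of the threshold did not change these orders of sham and the injured groups. With Ankrd1 above 3, the mean shares were 1.22%, 19.0% and 20.7%, and with Ankrd1 above 2 they were 8.80%, 32.6% and 39.5%.

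Depth was held equal by thinning each nucleus to 1000 UMIs and counting those with at least 2 Ankrd1 UMIs. The mean shares of cardiomyocytes were then 2.85%, 22.0% and 24.2%, and the groups with ligation again did not overlap sham. Without thinning, at least 2 Ankrd1 UMIs were found in 15.2%, 40.5% and 50.1% of cardiomyocytes, and I/R then overlapped sham, with an exact permutation p of 0.2. In nuclei of other cell types, an Ankrd1 value above 2.5 was found in 0.731% to 2.96%, at median depths of 1255 to 1745 UMIs. In the sham mice it was 1.04% to 1.92%, against 2.45% to 4.61% of cardiomyocytes, which were deeper. Of all 2622 nuclei above 2.5, 64.8% were members, 447 had fewer than 2 of the cardiomyocyte genes, 295 had 2 or 3, and 181 had at least 4 with 3 or more genes of other types.

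The level of Ankrd1 above the threshold also differed by group, which describes the choice and is not a finding. The median value of the members was 2.90, 2.70 and 2.83 in the sham mice, 3.2, 3.55 and 3.18 in the I/R mice and 3.41, 3.17 and 3.04 in the SBP mice. A sham member held a median of 4 to 8 Ankrd1 UMIs, an I/R member 13 to 15 and an SBP member 10 to 17. The threshold cut through a continuous range, with 120 members between 2.5 and 2.6 and 119 cardiomyocytes between 2.4 and 2.5. Members held 29354 of the 49246 Ankrd1 UMIs of the series, or 59.6%. By mouse, they held 14.9% to 30.4% of these UMIs in sham and 53.4% to 70.4% in I/R.

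**Figure D2:**
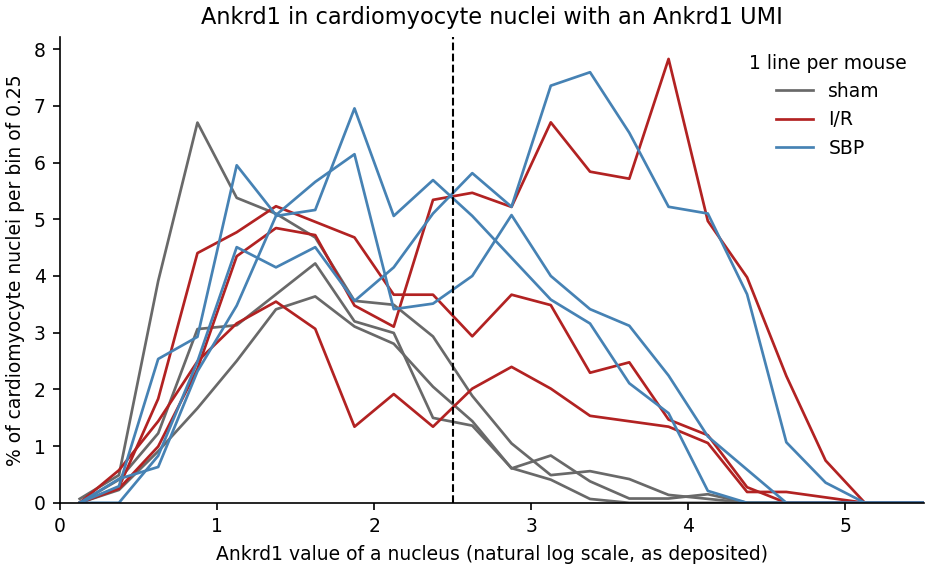
Distribution of the Ankrd1 value (x axis, natural log as deposited) over the cardiomyocyte nuclei with Ankrd1 above 0, as a percent of all cardiomyocytes of the mouse (y axis, bins of 0.25), with 1 line per mouse coloured by group and the threshold of 2.5 as a dashed line. Sham nuclei thin out around the threshold, while I/R and SBP nuclei run on above it without a gap.

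The genes that accompanied Ankrd1 within a mouse were described by setting the Ankrd1-high pool of each sample against its own Ankrd1-low pool. The choice of the nuclei used Ankrd1 in the same cells, so these differences are a description with no test. Tgfb2 and Nppb had the largest differences among genes of at least 50 CPM that were higher in all 9 mice, and the complement protease Masp1 and the Z-disc genes Flnc and Xirp2 were among the 10 largest. On the lower side in all 9 mice were 2 of 15 ion channel genes and 9 of 31 metabolic genes. Of 11515 genes, 135 (1.17%) were higher and 423 (3.67%) lower in the Ankrd1-high pool in all 9 samples. With a mean log2 difference over 1 in addition, 23 (0.200%) were higher, and with one under -1, 37 (0.321%) were lower. Without sham 2 the first count was 40, and without sham 3, I/R 2 or I/R 3 the second was 60, 67 or 56. The median difference of all genes was -0.13. The shares depended on depth. Among 1983 deeper genes, with a mean level of 10 UMIs or more in the smallest pool, 52 were higher and 254 lower in all 9.

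Nppb, a secreted hormone that lowers the load on the heart, was higher in the Ankrd1-high pool of each mouse. Its levels in Ankrd1-high nuclei were 107, 33.6 and 102 CPM in sham, 189, 170 and 110 CPM in I/R, and 196, 174 and 223 CPM in SBP. In Ankrd1-low nuclei they were 16.2, 8.58 and 36.9 CPM in sham, 20.2, 62.8 and 53.7 CPM in I/R, and 62.2, 62.9 and 80.9 CPM in SBP. The lowest high pool, sham 2, lay below several low pools of other mice, so the 2 kinds of pool separated within mice and not across all of them. The mean log2 difference was 1.79 ± 0.68 (SD, n = 9). Among single nuclei, 28.35% to 44.53% of I/R members had an Nppb UMI, against 5.246% to 16.07% of Ankrd1-low cardiomyocytes and 1.455% to 1.978% of nuclei of other types.

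Nppb followed the Ankrd1 value in steps. In SBP cardiomyocytes without an Ankrd1 UMI it was 55.7 ± 7.3 CPM (SD, n = 3), in those above 2.5 to 3.5 it was 140.5 ± 28.5 CPM, and above 3.5 it was 315.2 ± 95.8 CPM. In I/R the same steps gave 34.6 ± 21.5, 99.9 ± 0.7 and 241.5 ± 109.8 CPM. In sham the level was 17.4 ± 15.2 CPM without Ankrd1 and 84.7 ± 38.7 CPM above 2.5 to 3.5, and only 13 nuclei lay above 3.5. Flnc in SBP went from 45.1 ± 3.0 to 96.5 ± 25.2 and 385.6 ± 212.4 CPM over these steps, while Ryr2 went from 8043.5 ± 1059.7 to 10268.4 ± 1770.4 and 10553.6 ± 1335.3 CPM.

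**Figure D3:**
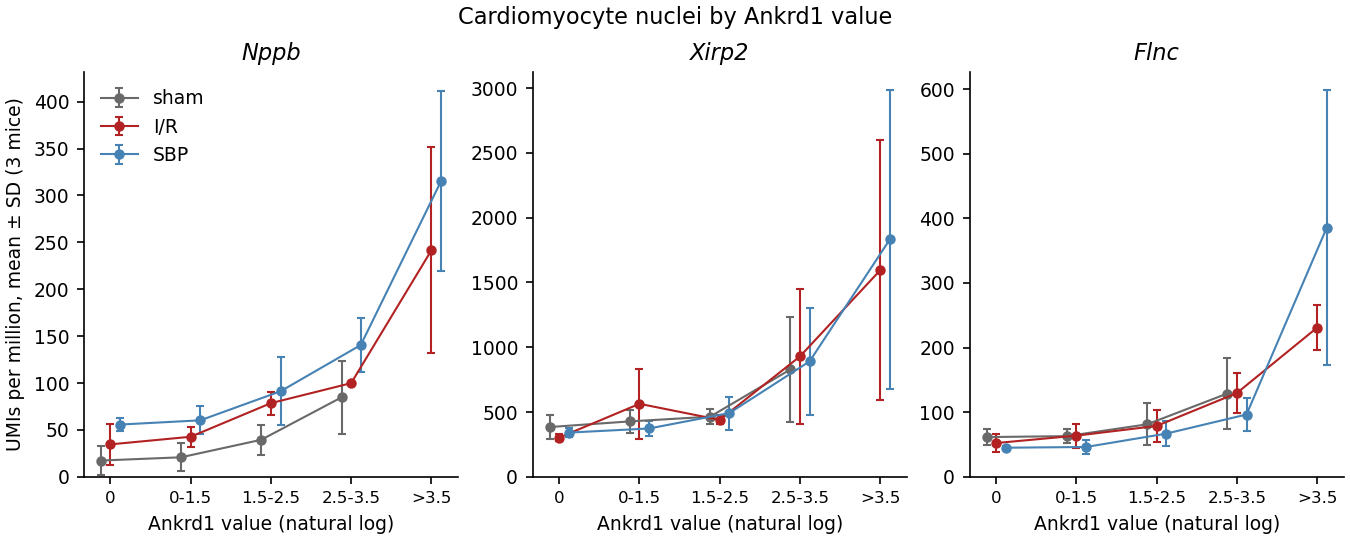
Mean level of Nppb, Xirp2 and Flnc (y axis, CPM) in cardiomyocyte nuclei grouped by their Ankrd1 value (x axis), for sham, I/R and SBP, with the SD over mice as bars and without bins in which a mouse had fewer than 20 nuclei. In I/R and SBP all 3 genes are highest in the bin above 3.5, and the SD there is the widest.

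Other secreted genes went both ways. Tgfb2, a growth factor of the transforming growth factor beta family, stood at 26.3 to 146 CPM in the Ankrd1-high pools and 13.4 to 35.7 CPM in the low pools, a mean log2 difference of 1.81 ± 0.76 (SD, n = 9). The lowest value, 26.3 CPM in sham 3, lay within the range of the low pools, and among nuclei without any gene of another type the mean difference of Tgfb2 was 1.00. Masp1, a protease that starts the lectin branch of complement, stood at 47.0 to 181 CPM against 21.3 to 81.5 CPM, a difference of 1.47 ± 0.46. Its low pools were themselves high in I/R 2 with 77.6 CPM and in SBP 1 with 81.5 CPM, the mice with the largest shares of members, and lay between 21.3 and 31.8 CPM in the rest. Of the 16 secreted injury signals measured, only Tgfb2 was higher in all 9 samples, Angpt1 (-0.68) and Fgf1 (-0.29) were lower in all 9, and the median difference was -0.36. Ccbe1, a secreted factor of lymphatic growth, was also lower, at 58.0 CPM against 112 CPM.

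Z-disc and titin-bound genes were the list with the most members on the higher side. Of 21 measured, 9 were higher in all 9 samples (Flnc, Ankrd23, Xirp2, Synpo2l, Pdlim3, Xirp1, Nrap, Hspb7 and Des), 1 was lower (Synpo2, -0.66), and the median difference was 0.50, beside 1.17% of all genes on the higher side. Flnc, an actin cross-linker of the Z-disc, stood at 75.9 to 222 CPM in the Ankrd1-high pools and 45.2 to 76.3 CPM in the low pools. Xirp2, which holds actin at the disc between cells, stood at 514 to 1684 CPM against 339 to 511 CPM. Both genes had their smallest difference in sham 3, with 75.9 against 67.8 CPM for Flnc and 514 against 511 CPM for Xirp2. Ankrd23, a titin-binding relative of Ankrd1, had a mean difference of 1.31 ± 0.50 (SD, n = 9), and Synpo2l, an actin-bundling protein of the Z-disc, one of 1.03 ± 0.39.

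**Figure D4:**
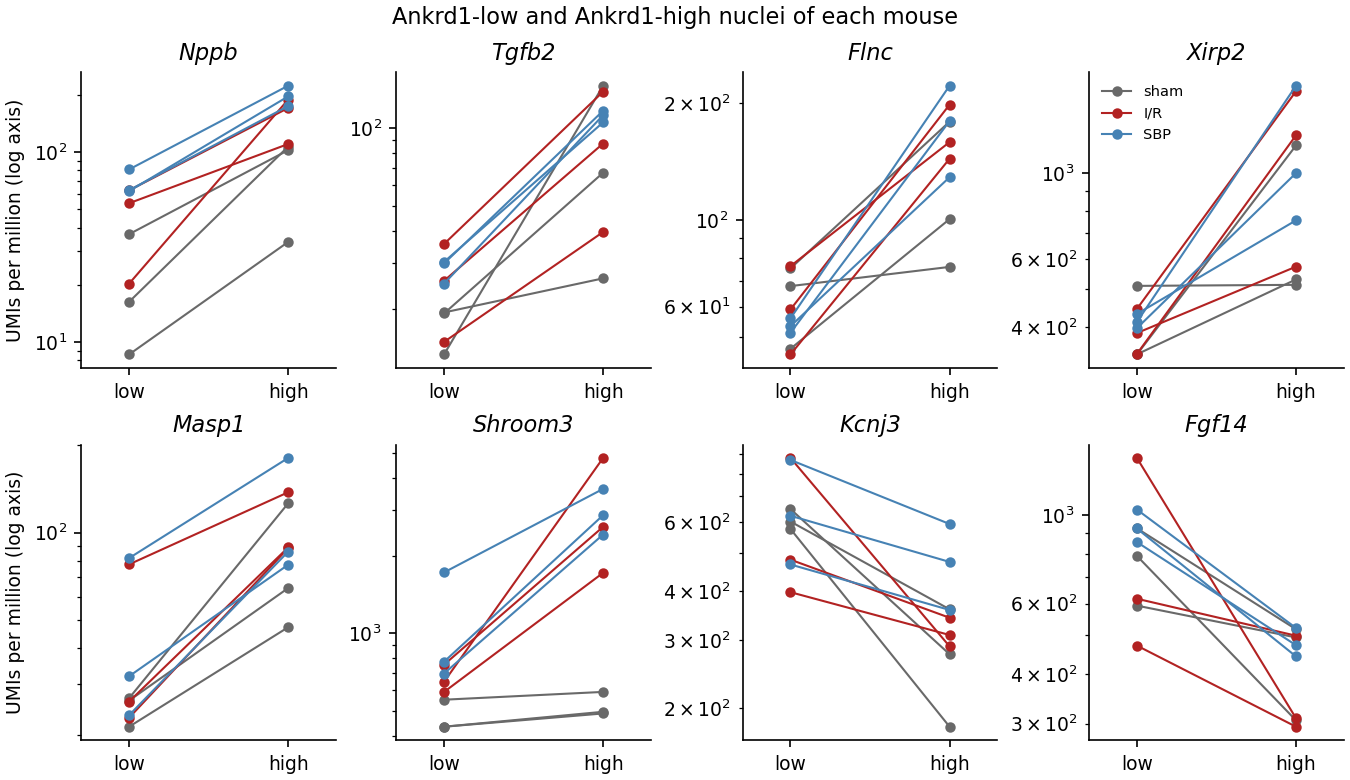
Level (y axis, CPM on a log scale) of Nppb, Tgfb2, Flnc, Xirp2, Masp1, Shroom3, Kcnj3 and Fgf14 in the Ankrd1-low and Ankrd1-high nuclei of each mouse, with a line joining the pools of 1 mouse. Nppb rises in each of the 9 mice from low to high and Kcnj3 falls in each, while Shroom3 is nearly level in the 3 sham mice and steep in the 6 mice with ligation.

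The counts that follow are read beside 1.17% of all genes higher and 3.67% lower in all 9 samples. Of 19 sarcomere genes, tropomyosin Tpm1 (0.49 ± 0.22), troponin C Tnnc1 (0.45 ± 0.20), myosin-binding protein Mybpc3 (0.39 ± 0.11) and the M-band protein Myom1 (0.23 ± 0.11) were higher in all 9 samples, with their SD over 9 samples. Myom2 was lower in all 9 (-0.26), and the median was 0.09. Of 19 adhesion and cytoskeleton genes, desmin (Des), talin (Tln1) and plakophilin (Pkp2) were higher in all 9, with a median of 0.17. Of 8 natriuretic and fetal genes, Nppb and the matrix protein gene Ccn1 were higher in all 9, with a median of 0.63.

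Further genes that stood higher in all 9 mice had less familiar roles in the heart. Shroom3, an actin-binding protein that shapes epithelial cells, stood at 2175 CPM against 734 CPM, Tox3, a chromatin protein, at 126 CPM against 45.8 CPM, and Ppm1e, a protein phosphatase, at 372 CPM against 141 CPM. Uck2, a kinase of the pyrimidine salvage pathway, stood at 185 CPM against 74.7 CPM. The long noncoding RNA Gm13481 stood at 557 CPM against 225 CPM. For Shroom3 the sham mice had a mean log2 difference of 0.15, against 2.07 for the I/R mice and 1.59 for the SBP mice.

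Kcnj3 and Fgf14 stood lower in each mouse. Kcnj3, a subunit of the acetylcholine-activated potassium channel, was at 179.6 to 594.5 CPM in the Ankrd1-high pools and 397.4 to 878.2 CPM in the low pools, a mean log2 difference of -0.83 ± 0.53 (SD, n = 9). Fgf14, which binds sodium channels, was at 294.8 to 521.1 CPM against 470.8 to 1390.8 CPM, a difference of -0.95 ± 0.57. Both overlapped in range across mice. Of 15 ion channel genes, Kcnj3 and Kcnj2, the inward rectifier that sets the resting potential, were lower in all 9 and none was higher, beside 3.67% of all genes lower and 1.17% higher. Of 14 calcium handling genes, the calcium pump Atp2a2 (-0.24) and its inhibitor phospholamban Pln (-0.20) were lower in all 9 and none was higher.

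Of 31 genes of fatty acid and glucose metabolism, 9 were lower in all 9 samples and none was higher, beside 3.67% of all genes on the lower side. They were the lipases Ces1d and Lpl, the regulators Ppara, Ppargc1a and Esrrg, the fatty acid transporter Slc27a1, the carnitine transferase Cpt1a, and the oxidation enzymes Acadm and Hadha. Their mean log2 differences lay between -0.83 for Ces1d and -0.26 for Lpl, and the list's median was -0.19, near the -0.13 of all genes. Among the 1983 deeper genes, 254 were lower in all 9. Ces1d, a triglyceride hydrolase, was at 74.2 CPM against 128 CPM. Of 24 nuclear-encoded respiratory chain genes, Ndufs4 alone was lower in all 9, with a median of -0.01. Galnt17 (-1.01), Pygo1 (-0.97), Gm12519 (-0.95), Gm30382 (-0.86), Ripor2 (-0.79) and Abhd18 (-0.76) completed the 10 largest decreases among genes of at least 50 CPM that were lower in all 9 mice. Galnt17, Pygo1 and Gm12519 held only 28, 21 and 15 UMIs over the sham high pools. In sham 1, Galnt17 was at 4.85 CPM against 58.8 CPM and Gm12519 at 4.85 against 44.6 CPM. In sham 2, Pygo1 was at 0 against 32.4 CPM. The part of these shallow pools in the 3 means was not tested.

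General stress lists had few genes on one side in every mouse, again beside 1.17% of all genes higher and 3.67% lower. Of 17 hypoxia, oxidative and p53 stress genes, none was higher and Bnip3 was lower in all 9, with a median of 0.01. Of 12 heat shock and chaperone genes, none was on either side in all 9, with a median of 0.18. Of 15 immediate early and injury transcription factors, Ets2 was higher, with a median of 0.15, and of 13 YAP and TEAD linked genes, Ccn1 was higher, with a median of -0.09. Of 8 glucocorticoid responsive genes, Cnksr3 and Fkbp5 were lower, with a median of -0.17. Of 21 genes that the study itself names for cardiomyocytes and SBP, which were chosen on these samples, 3 were higher and 3 lower, with a median of -0.14.

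The Ankrd1-high nuclei of the injured hearts were then compared with the few of the sham hearts, which shows what differed among nuclei past the same threshold. Their summed UMIs were fitted for all 9 samples on the scale log2(CPM + 1) with limma, and calls needed both a log2 fold change over 0.25 in size and an adjusted p (Benjamini-Hochberg) no greater than 0.05. Of 8612 genes, 44 (0.511%) were higher and 10 (0.116%) lower in I/R than in sham. The I/R and SBP members also carried more Ankrd1 than sham members (log2 fold changes of 1.00 and 0.93), and the part of this in the calls was not tested. The median gene moved by 0.23 under TMM scaling and by 0.01 under scaling to the total, where 28 genes were higher and 39 lower. The count leaned on single mice, with 1 gene called without I/R 2 (Shroom3), 3 without I/R 3, 14 without SBP 2, 26 without SBP 3, 30 without SBP 1, 140 without sham 2 and 166 without sham 3. Every gene named below except Shroom3 lost its call without I/R 2, and every one except Osmr and Per3 lost it without I/R 3.

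Shroom3 was at 498, 595 and 487 CPM in sham members, 4752, 1737 and 2603 CPM in I/R members, and 3708, 2930 and 2482 CPM in SBP members. The injured mice were all above the sham mice and overlapped each other. The log2 fold change of I/R over sham was 2.40 (SE 0.31, limma adjusted p = 0.0231, adjusted p from 0.00657 to 0.0683 over 24 alternative settings). In Ankrd1-low nuclei the sham values were 433, 551 and 433 CPM and the I/R values 647, 591 and 754 CPM.

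Osmr and Stat3 were among the called genes and were picked for description after their values were seen. Osmr, the receptor of oncostatin M, was at 19.5, 6.76 and 14.6 CPM in sham, 155, 114 and 58.7 CPM in I/R, and 95.3, 77.0 and 82.6 CPM in SBP (log2 fold change of I/R over sham 2.92, SE 0.41, limma adjusted p = 0.0245). Stat3, the transcription factor downstream of that receptor, was at 122, 135 and 126 CPM in sham, 316, 515 and 496 CPM in I/R, and 466, 433 and 353 CPM in SBP (1.75, SE 0.23, limma adjusted p = 0.0231). Neither gene overlapped between sham and the injured groups, as for 18.3% of all genes in I/R and 22.1% in SBP. In unscaled CPM over the I/R group, Osmr was at 105.2 in members, 27.9 in Ankrd1-low nuclei, 432 in endothelial and 568 in fibroblast nuclei. Without I/R 2, Osmr and Stat3 both had an adjusted p of 0.136. Osmr held only 10 UMIs over the sham members, and its sham 2 pool lay below the filter level of 9.495 CPM. The Osmr call is therefore not given as support.

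Serpina3n, a secreted inhibitor of serine proteases, had no UMI in the members of any sham mouse and 241 in I/R members, at 13.5, 66.7 and 74.2 CPM. Against the level of 3 UMIs over the sham pools, this is at least 11.8-fold higher, or at least 5.79-fold without sham 3. SBP with 85 UMIs was at least 3.49-fold higher, or at least 1.71-fold without sham 3 and 1.65-fold without SBP 1. Its unscaled level over the I/R group was 50.04 CPM in members, 13.6 in Ankrd1-low nuclei and 145 in fibroblast nuclei. In sham it was 0.503 CPM in Ankrd1-low nuclei and 13.8 CPM in fibroblast nuclei. Serpina3n, Spp1, Map3k8, Ncam1 and Chsy3 passed the filter on low values through the mice with ligation alone, so their calls are not given as support. Spp1, or osteopontin, a matrix protein of injured tissue, also had no UMI in the sham members and stood at 189, 13.9 and 25.3 CPM in the I/R members. That is at least 10.5-fold higher, or at least 3.69-fold without I/R 1, 5.14-fold without sham 3 and 18.0-fold without I/R 2. Spp1 was not particular to these nuclei by level. In unscaled CPM over the I/R group it was at 72.1 in members, 73.3 in Ankrd1-low nuclei, 269 in endothelial, 180 in fibroblast and 430 in myeloid nuclei.

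Map3k8, a kinase of inflammatory signalling, had no UMI in the sham members and 80 in I/R, at least 3.92-fold higher, and at least 1.92-fold without sham 3. Its unscaled level in sham Ankrd1-low nuclei was 8.20 CPM, so the gene was present in sham cardiomyocytes outside the small pools. Ncam1, a cell adhesion molecule, rose from 1 UMI to 131, a ratio of 19.3 with an exact 95% interval of 3.40 to 766. Chsy3, an enzyme of chondroitin chains, rose from 2 UMIs to 146, a ratio of 10.7 with an interval of 2.92 to 89.4. Both intervals cover counting error only. Both genes were present in sham cardiomyocytes outside the small pools. In Ankrd1-low nuclei, Ncam1 was at 13.9 unscaled CPM in sham and 22.1 in I/R, and Chsy3 at 14.2 and 17.7. None of these 3 genes was highest in members among the cell types measured. Over the I/R group in unscaled CPM, Map3k8 was at 18.2 in members and 71.1 in myeloid nuclei, Ncam1 at 32.0 in members and 82.2 in endothelial nuclei, and Chsy3 at 35.9 in members and 175 in fibroblast nuclei. Spp1, Serpina3n, Ncam1, Chsy3 and Map3k8 were the 5 called genes with the largest fitted fold changes, and all 5 rest on 2 or fewer UMIs in sham.

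The list counts for I/R against sham that follow are read beside 0.511% of all genes called higher and 0.116% called lower. Of 16 hypoxia, oxidative and p53 stress genes, the metallothioneins Mt1 and Mt2, which bind metals, rose, and the list's median log2 fold change was 1.15 beside 0.23 for all genes. Mt1 was at 127, 142 and 169 CPM in sham and 455, 555 and 512 CPM in I/R, a log2 fold change of 1.80 with a limma adjusted p of 0.0386. Mt2 was at 14.6, 6.76 and 23.3 CPM in sham and 127, 135 and 97.0 CPM in I/R (3.06, limma adjusted p = 0.0245). Its sham 2 pool also lay below the level of the filter, so the Mt2 call is not given as support. Of 30 metabolic genes, Pdk4, the kinase that shuts pyruvate out of oxidation, rose from 48.8, 264 and 75.9 CPM to 791, 1530 and 1858 CPM (3.71, limma adjusted p = 0.0303). In cardiomyocytes without an Ankrd1 UMI, Pdk4 likewise went from 168 ± 140 CPM in sham to 1481 ± 483 CPM in I/R (unscaled, SD, n = 3). Pdk4 is also the called member of the 8 glucocorticoid responsive genes.

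Of 21 Z-disc genes, Fhl1, a LIM protein of the titin spring, rose from 53.7, 40.5 and 61.3 CPM to 111, 128 and 171 CPM, by 1.38 on the log2 scale (limma adjusted p = 0.0366). Of 19 sarcomere genes, the ventricular light chain Myl2 fell from 1718, 2068 and 2229 CPM to 907, 790 and 725 CPM (-1.31, limma adjusted p = 0.0345). None of 24 respiratory chain genes was called, with a median of -0.57, and none of 13 immediate early genes, with a median of 1.02. Of 12 secreted injury signals, Spp1 was called, and this call is not given as support, for the reason above. Of 4 fibroblast markers, the collagen Col3a1 was called (2.91, limma adjusted p = 0.0245), at 89.9 unscaled CPM in I/R members, 100 in Ankrd1-low nuclei and 1828 in I/R fibroblasts. Of 20 genes the study names, Pdk4 and Col3a1 were called.

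No member of the remaining lists was called, again beside 0.511% of all genes higher and 0.116% lower, and no lymphocyte marker passed the filter. The median log2 fold change was 0.03 for 7 natriuretic and fetal genes, 0.41 for 12 YAP and TEAD linked genes, 0.08 for 14 calcium handling genes and 0.05 for 13 ion channel genes. It was 0.13 for 11 heat shock genes and 0.35 for 17 adhesion genes. For 3 endothelial markers it was -0.85 and for 5 myeloid markers 0.97. For 2 pericyte and smooth muscle markers it was 0.78 and for 1 Schwann cell marker -0.01. The TEAD factor Tead3, which is in none of the lists and was named after its values were seen, was at 20.3 to 26.3 CPM in sham and 67.3 to 105 CPM in I/R (1.85, limma adjusted p = 0.0294).

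Of the genes that fell, the creatine kinase Ckm, which buffers ATP in muscle, was at 146, 243 and 274 CPM in sham, 75.9, 29.7 and 35.1 CPM in I/R, and 55.9, 50.9 and 70.5 CPM in SBP (log2 fold change of I/R over sham -2.29, SE 0.35, limma adjusted p = 0.0245). SBP against sham gave -1.85, with an adjusted p of 0.0556. The injured mice did not overlap sham. The fall was not particular to members. In unscaled CPM, Ckm went from 252 in sham to 45.0 in I/R members, and from 158 to 54.1 in Ankrd1-low nuclei. It went from 207 to 80.2 in endothelial, 149 to 45.9 in fibroblast and 149 to 39.8 in myeloid nuclei. The amino acid transporter Slc36a2 (-2.33, limma adjusted p = 0.0466) and the orphan receptor Gpr22 (-2.14, limma adjusted p = 0.0386) also fell. Slc36a2 lay below the level of the filter in I/R 2, and Gpr22 in I/R 2 and I/R 3, so neither call is given as support.

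Dbp, an output gene of the circadian clock, and Per3, a Period gene of the clock, were among the 5 genes of largest decrease. Dbp was at 39.0, 122 and 70.0 CPM in sham, 11.0, 7.19 and 4.89 CPM in I/R, and 9.63, 25.4 and 6.04 CPM in SBP (log2 fold change of I/R over sham -3.08, SE 0.55, limma adjusted p = 0.0360). Per3 was at 122, 115 and 114 CPM in sham, 24.5, 28.3 and 46.5 CPM in I/R, and 63.6, 78.3 and 50.3 CPM in SBP (-1.84, limma adjusted p = 0.0245). All I/R mice lay below all sham mice for both genes. Dbp lay below the level of the filter in I/R 2 and I/R 3, so its call is not given as support. Both genes were also lower in I/R than in sham outside the members. In unscaled CPM, Dbp went from 83.9 to 6.80 in Ankrd1-low nuclei and from 130.5 to 9.12 in fibroblast nuclei, and Per3 from 135 to 40.5 and from 208 to 60.8. After these values were seen, other clock genes among the calls were named. Clock rose from 43.9, 67.6 and 70.0 CPM to 178, 179 and 154 CPM (limma adjusted p = 0.0245), and Tef fell (-1.21, limma adjusted p = 0.0484). Arntl had 3 UMIs in sham and a count ratio of 13.9 with an exact 95% interval of 4.71 to 67.9. With so few sham UMIs, the Arntl call is not given as support. The hours at which the hearts were taken are not given in the sources used here.

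**Figure D5:**
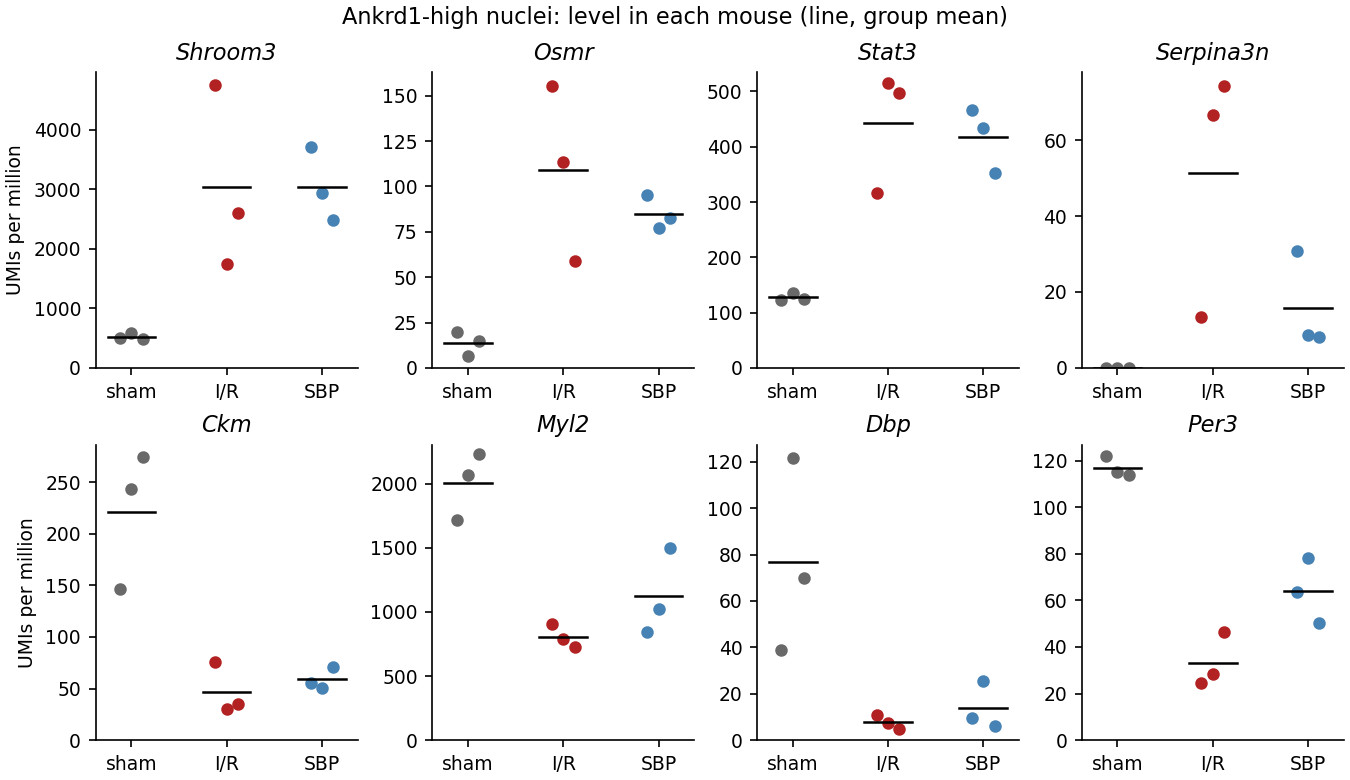
Level (y axis, CPM on a linear scale from 0) of Shroom3, Osmr, Stat3, Serpina3n, Ckm, Myl2, Dbp and Per3 in the Ankrd1-high nuclei of each of the 9 mice, by group, with a line at the group mean. The sham points lie apart from the I/R points for each gene, below them for the first 4 and above them for the last 4, and the SBP points overlap those of I/R for each gene except Per3, where they fall between.

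Nppb in members was at 107, 33.8 and 102 CPM in sham, 187, 173 and 111 CPM in I/R, and 200, 178 and 230 CPM in SBP. The I/R mice did not overlap sham, but the fold change of 1.08 (log2, SE 0.39) was not called (limma adjusted p = 0.208), nor was that of SBP over sham of 1.47 (limma adjusted p = 0.123). Non-overlap of this kind was found for 18.3% of all genes in I/R against sham.

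The effect of the drug is read from SBP against I/R, which gave no called gene among Ankrd1-high nuclei with limma (0% of 8612). An unadjusted p under 0.05 was reached by 82 genes. It was reached by 240 of 8880 genes in a limma fit of the 6 samples compared, and by 303 with voom weights. In both, again 0 were called. The smallest p-values belonged to the lipid flippase Atp8a1 (0.83, limma unadjusted p = 0.00179, adjusted p = 1.000), Per3 (0.96), Gm30624 (1.17), Agbl4 (1.01) and Pkig (0.82), all higher in SBP. None of these 5 genes overlapped between the groups, as for 7.51% of all genes. Pkig, an inhibitor of protein kinase A, was at 168, 243 and 250 CPM in I/R and 515, 299 and 369 CPM in SBP. Nppb differed by 0.39 (SE 0.39), Shroom3 by 0.11 (SE 0.31) and Osmr by -0.26 (SE 0.41), and none of these was called. No difference between SBP and I/R members was thus detected with 3 mice a group. The main fit shares its spread over all 9 samples, the shallow sham pools among them. Mt2, named here after its values were seen, was lower in SBP in each mouse, at 90.0, 31.5 and 27.2 CPM against 127, 135 and 97.0 CPM (-1.45, SE 0.48, limma adjusted p = 1.000).

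SBP against sham shares the sham mice with the comparison above. It gave 18 higher genes (0.209%) and 0 lower, and 0 genes in either direction under scaling to the total, where the median gene moved by -0.04 in place of 0.26. Leaving out any 1 of the SBP mice left 0 genes called, and the count was 11 without I/R 2, 33, 55 and 138 without sham 1, 2 or 3, and 50 without I/R 1. Samples that did not overlap were found for 22.1% of all genes. Shroom3 (log2 fold change 2.51), Osmr (2.66), Stat3 (1.69) and Fhl1 (1.73) were called, each with a limma adjusted p of 0.0305. The Osmr call is again not given as support, because of its few UMIs in sham. Chsy3, with 2 UMIs in sham and 174 in SBP, had a count ratio of 10.7 (exact 95% interval 2.93 to 89.3). Ncam1, with 1 and 127, had one of 15.7 (2.76 to 623). Both genes passed the filter on low values through the mice with ligation alone, so their calls are not given as support. Also called, and named after their values were seen, were Slc38a2, an amino acid transporter (1.52, limma adjusted p = 0.0305), the membrane linker Msn (1.44, limma adjusted p = 0.0305), and Popdc2, a cAMP-binding membrane protein (1.26, limma adjusted p = 0.0475). Pkig was at 127, 115 and 155 CPM in sham and rose by 1.54 (limma adjusted p = 0.0361). The noncoding Gm20468 rose by 2.54 (limma adjusted p = 0.0460), with 6 UMIs in sham and 222 in SBP. It lay below the level of the filter in sham 1 and sham 2, so its call is not given as support. Of the lists, Fhl1 was called among 21 Z-disc genes and Pkig among 20 genes the study names, and no other member was.

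The question whether the distance between Ankrd1-high and Ankrd1-low nuclei itself changed with injury was put to limma on the difference of the pools of each mouse. None of 11515 genes was called (0%) for I/R against sham, SBP against I/R or SBP against sham, with 1292, 125 and 1206 genes at an unadjusted p under 0.05. Without sham 3, 249 and 204 genes were called for I/R and SBP against sham. Without sham 2 there were 3 for I/R, and without sham 1 there was 1 for SBP. The difference for Shroom3 was 1.91 log2 units larger in I/R than in sham (unadjusted p = 0.00268, limma adjusted p = 0.203), and that for Osmr 1.96 larger (limma adjusted p = 0.251). The smallest p-values belonged to Map3k8, Card14 and Gm17949 (limma adjusted p = 0.0898 for each), and all had 0 UMIs in the sham members. Card14, an adaptor of NF-kappa B signalling, was at 17.3, 23.2 and 9.7 CPM in I/R members and at 1.3 CPM or less in each Ankrd1-low pool. It overlaps Sgsh on the opposite strand.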

How the data were processed

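Nuclei from frozen hearts were sequenced on the 10x Genomics platform, 3 mice each for sham, I/R and SBP, grouped by the labels. The submitters' processing notes name Cell Ranger 4.0, STAR, Seurat 3.2.0 and the build GRCm38, while the study's methods name other versions of the same programs. Per the methods, libraries were brought to a like depth, nuclei with more than 200 genes and under 10% mitochondrial reads were kept, and mitochondrial genes were removed. The deposited values are the natural log of 1 plus 10000 times the UMIs of a gene over the total of the nucleus, as the authors normalized them. They were turned back into UMIs, which came out whole within 0.1 for nearly all values.

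The rule for the nuclei was applied to the deposited values. The nuclei, the gene lists and the rule for named genes were chosen with earlier results of these data known. No doublet caller was run. Doublets were bounded by the limit of 2 genes of other types, and the 82 members above 3 times the median UMIs of their sample's cardiomyocytes were left out as an alternative. UMIs were summed per mouse over Ankrd1-high and over Ankrd1-low nuclei, scaled by TMM, taken to log2(CPM + 1) and fitted with limma 3.58.1 in R 4.3.3 (trend and robust variances, all 9 samples, 3 groups). TMM factors were set over the 9 Ankrd1-high pools for contrasts between groups and over all 18 pools for Ankrd1-high against Ankrd1-low nuclei, so the same pool differs slightly between these scales. Genes needed the CPM of 10 UMIs in the median pool in at least 3 samples, and 15 UMIs in all. A count model was not used because the files hold log values. Fold changes on this scale understate those of low genes.

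Shares were compared with an exact two-sided permutation test over all splits of the mice compared. The exact intervals of count ratios were computed with scipy 1.17.1. Named genes were the markers, the 10 genes of largest difference each way between Ankrd1-high and Ankrd1-low nuclei with the same sign in all 9 samples and at least 50 CPM, the 5 called genes of largest fold change each way per contrast, or the 5 of smallest p where none was called, and 3 for the difference of differences. Members of the fixed lists were also named, and genes outside both are marked as named after their values were seen. The p-values rest on these 3 mice a group. Those of limma use a spread shared over all 9 samples, so the shallow sham pools enter the SBP against I/R values too. The labels name no batch, no hour of sampling and no strand setting for the counting, so overlapping genes on opposite strands may share reads. In the sequencing quality values of the study's supplement, the sham libraries stood apart from all I/R and SBP libraries. They differed in the number of low-quality reads and in GC content before filtering. In contrasts with sham, this technical difference cannot be told apart from the injury, and its part was not tested. The scripts were tested on simulated data. Alternatives were other Ankrd1 thresholds, stricter rules for the nuclei, other scaling, pseudocounts and filters, means of the deposited values, a replicate block, and leaving out each mouse.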

Additional observations from a re-analysis of the deposited data

Results flagged for a closer look

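For 11 of 146 listed or named genes checked, every sham mouse had one sign of the log2 difference between Ankrd1-high and Ankrd1-low nuclei and every mouse of an injured group the opposite sign. The differences of these differences were tested with limma across all genes, and none was called. Among 1983 genes deep enough in all pools, such opposite signs were found for 84 (4.24%) in I/R and sham, 121 (6.1%) in SBP and sham and 35 (1.77%) in SBP and I/R. Among the checked genes they were found for 9 (6.16%), 11 (7.53%) and 0. These shares were near those of the deep genes, so the genes below are given as values and not as a trait of the checked genes.

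In the next genes the Ankrd1-high nuclei held less than the low ones in each sham mouse. For Cacnb2, a subunit of the L-type calcium channel, the sham mean was -0.28, the I/R mean 0.55 and the SBP mean 0.65, so that I/R stood 0.82 and SBP 0.93 above sham (limma adjusted p = 0.206 and 0.176). For Gja1, connexin 43 of the gap junction, I/R stood 0.74 and SBP 0.86 above sham. For vinculin (Vcl) these values were 0.60 and 0.59, for Cacna1c, the pore of the same calcium channel, 0.47 and 0.46, and for the junction protein Tjp1 0.29 and 0.36. For the sodium-calcium exchanger Slc8a1, the signs were opposite in SBP and sham alone, and SBP stood 0.45 above sham.

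Among contractile genes, Tnnt2 stood 0.41 and 0.42 above sham, and Ttn 0.26 and 0.34. Ryr2 stood 0.55 above sham in SBP. The opposite direction was found for Ckm, with -0.74 for I/R and -0.82 for SBP relative to sham, where the Ankrd1-high nuclei held more than the low ones by 0.49, and for the glycolysis regulator Pfkfb2, with -0.48 and -0.42. The sham pools were the shallowest, and their part in these signs was not tested.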

How the results depend on the processing

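The share of Ankrd1-high nuclei kept its direction against sham under all 16 alternatives, between 11.5 and 29.7 points for I/R and between 18.3 and 32.2 for SBP when a mouse was left out. SBP against I/R ranged from -4.44 to 15.5 points when a mouse was left out, with -2.73 without I/R 1. The count of genes called within Ankrd1-high nuclei was unsteady. For I/R against sham it went from 54 to 153 with Ankrd1 above 2, 95 above 3, 4 without any other-type gene in a nucleus, 125 with a pseudocount of 5, 89 without the filter, 16 in a fit of these 6 samples, 91 on means of the deposited values and 17 with voom weights, and it ranged from 1 to 166 without a mouse. For SBP against sham it went from 18 to 36 with Ankrd1 above 2, 88 above 3, 3 without any other-type gene, 11 without the nuclei of most UMIs, 0 under library size scaling, 11 and 67 with pseudocounts of 0.5 and 5, 77 without the filter, 5 with voom weights and 47 with a filter of 10 UMIs in the smallest pool, and it ranged from 0 to 138 without a mouse. SBP against I/R gave 0 under all 24 alternatives. Voom weights and the filter on the smallest pool were chosen after seeing the data. Above 3, sham 2 held only 6 nuclei from 3 to 3.25 and 1 from 3.25 to 3.5. That is below the 20 nuclei set as the least for a pool, and counts above 3 carry this limit.

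With the replicate number as a replicate block, 0 genes were called for I/R against sham and 1 for SBP against sham. The exact permutation p of the share with the block was 0.25, 0.75 and 0.25, where 0.25 is the smallest that 3 pairs allow. Same-numbered mice correlated between -0.43 and 0.20 in their deviations from the group means. The labels do not say what the number marks, and with 3 mice a group these correlations cannot decide whether it marks a pairing.

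The difference of differences, with 0 genes in all 3 contrasts, gave 2 genes for I/R against sham with Ankrd1 above 2, 3 without any other-type gene and 13 with the filter on the smallest pool (Cacnb2 among them), and 0 to 249 without a mouse. With Ankrd1 above 3 it gave 771 for I/R and 794 for SBP, and the median gene moved by 1.07 and 1.10. The sham pools held the fewest nuclei there, with sham 2 below the least of 20. For SBP the difference of differences gave 1 without the filter and 0 to 204 without a mouse. The 23 genes higher in Ankrd1-high nuclei became 11 above 3, 7 without any other-type gene, 1 on means of the deposited values, 9 with the filter on the smallest pool and 20 to 40 without a mouse. The 37 lower genes became 5 above 2, 239 above 3, 0 with a pseudocount of 5, 0 on means of the deposited values, 1 with the filter on the smallest pool and 36 to 67 without a mouse. On means of the deposited values, a compressed scale, Nppb differed by 0.45 and Tgfb2 by 0.24. The causes of the other moves were not tested.

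Of the marker genes, none of which was called, some turned sign. Ttn in I/R against sham was 0.12 with Ankrd1 above 3, 0.06 without any other-type gene and 0.03 to 0.05 without sham 1, I/R 2 or I/R 3, with a range of -0.24 to 0.05 over all mice left out. Ttn in SBP against I/R was -0.02 without I/R 3, with a range of -0.02 to 0.29. Ttn in SBP against sham was -0.07 with Ankrd1 above 2, -0.28 under library size scaling, -0.18 on means of the deposited values and -0.02, -0.03 and -0.04 without sham 2, SBP 1 and sham 3, with a range of -0.04 to 0.14. Ryr2 in I/R against sham was -0.01 under library size scaling and -0.01 on means of the deposited values. Ryr2 in SBP against sham was -0.01 without the nuclei of most UMIs, -0.22 under library size scaling, -0.28 on means of the deposited values and -0.08 without sham 2, with a range of -0.08 to 0.18. In the sham pools, with 36 to 66 nuclei each, a gene at 0 UMIs may still be present up to the level of 3 UMIs.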
